A study of Homo sapiens with 16 samples.

Results

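The exons described here belong to 37 neighbouring genes on the short arm of human chromosome 2. They form a 2p25 stretch of 19 genes from FAM110C to CYS1, near the tip of the arm, and a 2p23 stretch of 18 genes from MPV17 to WDR43. A member was any exon-level probe set whose only gene symbol was 1 of these 37. That gave 479 of the 224320 probe sets with a single symbol, in 36 genes. GPN1 had none of its own, since its 13 probe sets carry a second symbol as well. Of the 479 members, 444 had a mean signal at or above the 25th percentile of the table, 212 in the 2p25 stretch and 232 in the 2p23 stretch. The genes were chosen because their exons differed between arrays labelled uninduced and arrays labelled induced. Differences between those labels are therefore given as a description, with no test.

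The cells were L1236, an established human Hodgkin lymphoma line, infected with a retrovirus that carries a hairpin RNA against RELB. RELB is an NF-kB transcription factor that acts downstream of CD40 and related receptors. Both groups carried the hairpin. One group was left uninduced, and the other received doxycycline to switch the hairpin on. No group without the virus, and none with a control hairpin, was analysed here, so doxycycline and the hairpin cannot be told apart. Whether the groups also differed in the cells or cultures they came from was not tested. Each group held 4 arrays, every array was summarised once per exon and once per gene, and each title gives a code, B_1 or B_4, and ends in the number 1 or 4. The labels explain neither. Values of 4 arrays are always listed in the order B_1 with last number 1, B_1 with 4, B_4 with 1 and B_4 with 4, and the arrays of both groups with the same codes are called a pair. Whether the arrays of a group stem from separate cultures is not stated, so p-values here reflect array-to-array spread alone, possibly of technical origin.

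RELB itself did not separate the groups. Its gene-level log2 signal was 7.23, 7.38, 7.54 and 7.45 in the arrays labelled uninduced, and 7.22, 7.26, 7.39 and 7.14 in those labelled induced. The groups overlapped, and the difference, labelled induced minus labelled uninduced, was -0.15 ± 0.09 (SE, n = 4 each). Column medians of the exon-level table ran from 6.51 to 6.59. Of 8 Hodgkin cell markers, 7 had a mean above every column median of the gene-level table in each group, while 0 of 5 T-cell and 0 of 4 myeloid markers did. Several markers differed between the labels. CD79A, a chain of the B-cell receptor complex, had a mean log2 signal of 5.73 in the arrays labelled uninduced and 11.0 in those labelled induced, and TNFRSF8, which encodes CD30, had 6.89 and 11.6. TRAF1 was also higher, with 5.87 and 8.58. Other Hodgkin cell markers went the other way: CD40 had 9.21 and 7.48, CCL22 7.57 and 5.82, and FUT4 6.85 and 6.38. The Hodgkin marker not above every column median was TRAF1 in the arrays labelled uninduced and CCL22 in those labelled induced. The summed log2 signal of the 4 measured B-cell markers was 25.6 and 33.6. Besides CD79A, PAX5 was higher in the arrays labelled induced, with 9.05 and 11.8. CD79B had 6.32 and 6.27, and MS4A1, which encodes CD20, 4.49 and 4.52. Of the B-cell markers 2 and 3 of 4 lay above every column median, in the arrays labelled uninduced and induced, of the fibroblast markers 1 and 2 of 4, and of the epithelial markers 0 and 2 of 3. The epithelial ones were CDH1, with 5.63 and 7.95, and KRT19, with 5.74 and 5.93, against a highest column median of 5.88. The part of these marker differences in the differences of the 2p genes was not tested.

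Bands 2p25 and 2p23 lie toward the tip of the short arm of chromosome 2 and hold mostly unrelated genes, many of them expressed in nearly every cell type. Genes transcribed outward from nearby starts can share one promoter region. The short arm is often gained in Hodgkin lymphoma, where the REL gene, nearer the centromere, is a known target. DNA copy number was not analysed here, and an array signal reads RNA abundance. In bulk RNA, fewer cells of a type and less RNA per cell cannot be told apart.

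Promoter sequences were taken from RefSeq on build GRCh38.p14, which listed windows of 250 bases before to 50 bases after the start for 34 of the 37 genes. For 3 pairs of members that are transcribed outward from neighbouring starts, bases before the plus-strand gene are shown. Both genes of each pair can be compared at the exon level. The bases shown lie in no annotated gene. They lie at chr2:264825-264946, chr2:9423570-9423653 and chr2:27663639-27663888, all printed on the plus strand. They contain none of the searched motifs on either strand: the GC box GGGCGG, the CCAAT box, the E-box CACGTG, the cyclic AMP response element TGACGTCA, the TATA box TATAAA and the NF-kB consensus. The printed bases are only part of the promoter windows. The full windows of SH3YL1 and ACP1 hold GGGCGG, that of SH3YL1 also CACGTG, and that of ITGB1BP1 CCAAT.
SH3YL1 and ACP1: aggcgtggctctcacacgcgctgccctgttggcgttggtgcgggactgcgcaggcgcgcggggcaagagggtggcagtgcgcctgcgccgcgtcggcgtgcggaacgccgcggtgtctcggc
ITGB1BP1 and CPSF3: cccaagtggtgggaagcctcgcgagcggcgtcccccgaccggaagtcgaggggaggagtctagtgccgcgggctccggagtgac
SUPT7L and SLC4A1AP: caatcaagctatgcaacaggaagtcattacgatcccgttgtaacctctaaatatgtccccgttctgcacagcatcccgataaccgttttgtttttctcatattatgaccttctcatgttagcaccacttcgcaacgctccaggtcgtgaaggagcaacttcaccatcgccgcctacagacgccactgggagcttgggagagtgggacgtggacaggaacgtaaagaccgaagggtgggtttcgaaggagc

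IFT172 and ZNF512 follow each other among the 2p23 members and had medians of opposite sign, so the bases before their starts are also shown. The IFT172 stretch is chr2:27489744-27489943 on the minus strand, and the ZNF512 stretch is chr2:27582842-27583041 on the plus strand. Capitals mark the GC box, the CCAAT box and the E-box, read on either strand.
IFT172: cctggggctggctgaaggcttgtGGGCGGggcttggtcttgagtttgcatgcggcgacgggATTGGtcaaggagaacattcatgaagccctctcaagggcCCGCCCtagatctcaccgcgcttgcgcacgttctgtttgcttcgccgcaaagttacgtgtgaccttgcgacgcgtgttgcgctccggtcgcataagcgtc
ZNF512: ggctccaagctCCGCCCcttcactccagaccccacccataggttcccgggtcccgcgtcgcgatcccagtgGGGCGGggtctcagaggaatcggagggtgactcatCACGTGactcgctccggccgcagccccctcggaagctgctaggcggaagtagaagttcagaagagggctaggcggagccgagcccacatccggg

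The exons of these genes were mostly dimmer in the arrays labelled induced. Of the 444 member probe sets that passed the filter, 396 (89.2%) had a lower mean there, where 47.8% of all 168240 passing probe sets did. In 316 members (71.2%) the 4 labelled-induced values all lay below the 4 labelled-uninduced ones, where 18.1% of all probe sets did. In 5 members (1.13%) they all lay above, against 18.5% of all probe sets. The median difference was -0.95 on the log2 scale for the members, or 1.93-fold lower, and 0.03 over all probe sets. A difference of at least 2-fold in the lower direction was seen in 204 members (45.9%), against 11.6% of all probe sets, and 342 members (77.0%) were lower in all 4 pairs, against 24.0%. The genes were chosen on this contrast, so these shares describe the choice and support nothing further.

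**Figure D1:**
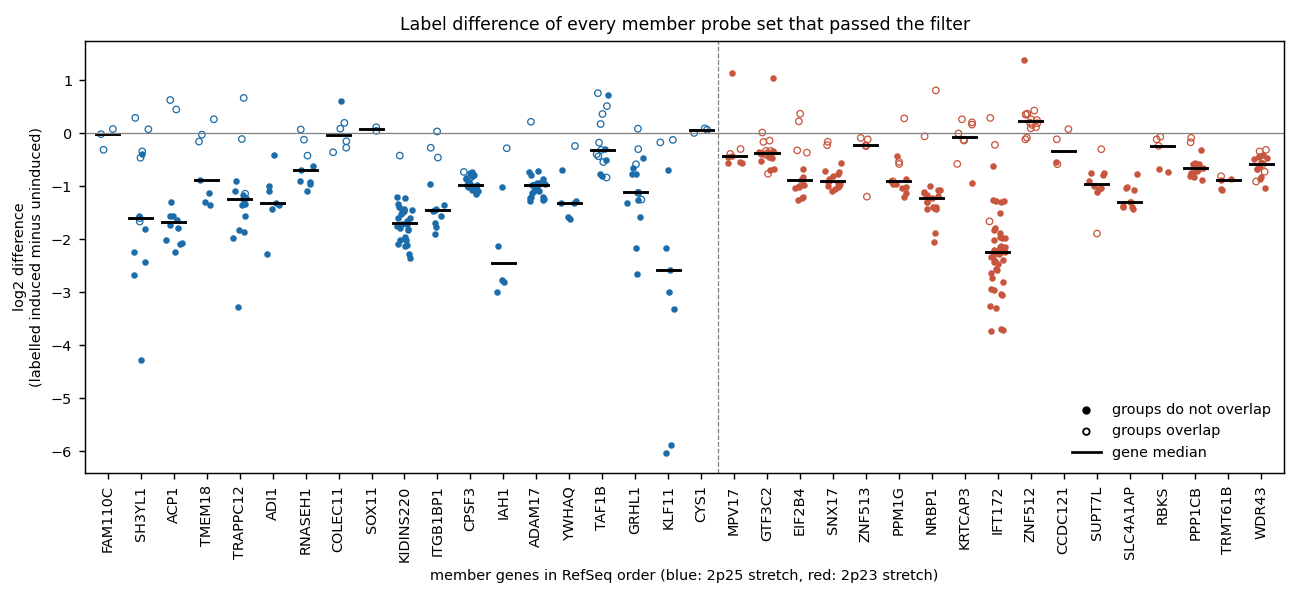
Each point is 1 member probe set that passed the filter, placed by gene in RefSeq order (x) and by its log2 difference, labelled induced minus labelled uninduced (y); filled points have groups of 4 arrays that do not overlap, and black bars are gene medians. Most points lie below 0, down to -6.04 in KLF11, while FAM110C, COLEC11, SOX11, CYS1, KRTCAP3 and ZNF512 have medians between -0.06 and 0.23.

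The 2 stretches shared the direction and differed in size. In the 2p25 stretch the median difference over probe sets was -1.09, or 2.13-fold lower, and the medians of the 4 pairs were -1.03, -1.36, -0.99 and -0.95. In the 2p23 stretch it was -0.81, or 1.75-fold lower, and the pairs gave -0.71, -0.86, -0.77 and -0.73. The 2p25 median was the lower one in each of the 4 pairs, and the difference between the stretches was not tested. Lower values without overlap were found in 154 of 212 probe sets (72.6%) of the 2p25 stretch and in 162 of 232 (69.8%) of the 2p23 stretch. Differences of at least 2-fold in the lower direction were more frequent in the 2p25 stretch, with 117 probe sets (55.2%) against 87 (37.5%). At the level of genes, 10 of 19 medians in the 2p25 stretch and 3 of 17 in the 2p23 stretch were at least 2-fold lower. The share of all genes with such a median was not counted. The filter used the mean of all 8 arrays, and without it the medians were -1.06 and -0.75.

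The first genes of the 2p25 stretch, from the tip of the arm, were FAM110C, SH3YL1, ACP1 and TMEM18. FAM110C, a protein of the centrosome and spindle pole, had a median log2 signal over its 3 probe sets of 7.19, 7.06, 6.93 and 7.05 in the arrays labelled uninduced and 6.97, 7.11, 7.48 and 7.01 in those labelled induced. The groups overlapped, and the median of its probe set differences was -0.01, the smallest of the stretch. Its brightest probe set, 8049967, differed by -0.31 ± 0.20 (SE), and the one with the highest difference, 8049968, by 0.08 ± 0.17.

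SH3YL1, an adaptor that binds membrane lipids, had 20 probe sets, of which 13 passed the filter. Their median difference was -1.60, and single probe sets ran from -4.29 to 0.29. Its brightest probe set, 8049987, had a mean log2 signal of 12.3 in the arrays labelled uninduced and 11.9 in those labelled induced, a difference of -0.39 ± 0.15 (SE). Probe set 8049985 went from a mean of 8.61 to 4.33, a difference of -4.29 ± 0.24. The median over all 20 was -0.63, and over the 4 that pass a filter at the 50th percentile it was -0.16.

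ACP1, the low-molecular-weight protein tyrosine phosphatase, is transcribed outward from SH3YL1. Over its probe sets the median log2 signal was 10.5, 10.6, 10.5 and 10.4 in the arrays labelled uninduced and 8.79, 8.48, 8.52 and 8.48 in those labelled induced. The groups lay far apart, and 10 of 12 passing probe sets were lower without overlap. The median difference was -1.68, or 3.20-fold lower, with pair values from -1.85 to -1.64. The brightest probe set, 8039972, differed by -1.56 ± 0.16, and the one with the lowest difference, 8039971, by -2.24 ± 0.35. One dimmer probe set, 8039962, had a higher mean in the arrays labelled induced, 7.48 against 6.85, with overlapping groups. TMEM18, a protein of the nuclear membrane, followed with a median difference of -0.88 and 4 of 7 probe sets lower without overlap.

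TRAPPC12, a subunit of a vesicle tethering complex, ADI1, an enzyme of methionine salvage, and RNASEH1, which cuts the RNA strand of RNA-DNA hybrids, come next among the members. TRAPPC12 had a median difference of -1.23, with 14 of 15 probe sets lower, 12 of them without overlap. ADI1 had -1.32, and all 7 of its probe sets were lower without overlap. RNASEH1 had -0.70, with 6 of 9 lower without overlap. All 3 genes were lower in every pair.

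COLEC11, a soluble lectin that starts complement activation, and SOX11, a transcription factor of the developing nervous system that is also known from mantle cell lymphoma, did not share this shift. COLEC11 had a median difference of -0.03 over 6 passing probe sets, 3 lower and 3 higher, and its pair medians ran from -0.32 to 0.38. Its probe set 8040050 was higher without overlap in the arrays labelled induced, by 0.61 ± 0.22. SOX11 had 2 probe sets, with a median log2 signal of 6.18, 5.97, 6.20 and 6.25 in the arrays labelled uninduced and 6.08, 6.39, 6.22 and 6.24 in those labelled induced. These values overlapped, lay below the lowest column median of 6.51, and gave a median difference of 0.08. Its brightest probe set, 8040072, differed by 0.05 ± 0.16 and the other, 8040071, by 0.12 ± 0.16.

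KIDINS220, a large membrane scaffold for neurotrophin and antigen receptors, was lower across nearly all its exons. Its median log2 signal was 9.53, 9.59, 9.36 and 9.28 in the arrays labelled uninduced and 7.80, 7.49, 7.67 and 7.74 in those labelled induced. All 30 passing probe sets were lower, and 29 of them did not overlap. The median difference was -1.69, or 3.23-fold lower, with single probe sets from -2.35 to -0.42. Its brightest probe set, 8050153, had a mean of 11.5 against 9.75, a difference of -1.79 ± 0.14. The lowest difference, in 8050139, was -2.35 ± 0.23, and the highest, in 8050133, was -0.42 ± 0.35 at a mean of 6.21 in the arrays labelled uninduced.

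ITGB1BP1, which binds the tail of integrin beta chains, and CPSF3, the nuclease that cleaves pre-mRNA before polyadenylation, form the second outward pair. ITGB1BP1 had a median difference of -1.44, with 9 of 12 probe sets lower without overlap. CPSF3 had -0.97, with all 19 passing probe sets between -1.15 and -0.73 and 17 without overlap. In these 3 outward pairs both partners had medians below 0 in every pair of arrays: SH3YL1 and ACP1 had -1.60 and -1.68, ITGB1BP1 and CPSF3 -1.44 and -0.97, and SUPT7L and SLC4A1AP -0.95 and -1.29. Their annotated starts are 554, 125 and 274 bases apart. Medians below 0 in every pair of arrays were common among the members. They were found in 15 of 19 genes of the 2p25 stretch and 13 of 17 of the 2p23 stretch. Whether outward partners resemble each other more than other members do was not tested.

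IAH1, an esterase related to a yeast isoamyl acetate hydrolase, had one of the strongest shifts. The median log2 signal of IAH1 was 7.47, 7.63, 7.22 and 7.14 in the arrays labelled uninduced and 4.80, 5.35, 5.11 and 4.47 in those labelled induced. The groups did not overlap, and the median difference over 6 passing probe sets was -2.45, or 5.46-fold lower. Single exons differed widely. The brightest probe set, 8040165, had means of 7.79 and 7.51 and differed by -0.28 ± 0.29 with overlapping groups, which was also the highest difference. Probe set 8040166, from 7.06, 7.06, 6.66 and 6.16 to 4.01, 3.86, 3.70 and 3.38, differed by -2.99 ± 0.16. Only 2 probe sets passed a filter at the 50th percentile, with a median of -0.65, and the gene-level difference was -2.13 ± 0.10.

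ADAM17, the protease that sheds tumour necrosis factor from the cell surface, and YWHAQ, a 14-3-3 adaptor protein, followed the stretch. ADAM17 had a median difference of -0.98, with 21 of 22 probe sets lower, all of those without overlap. YWHAQ had -1.32, with all 7 probe sets lower and 6 without overlap. TAF1B, a subunit of the RNA polymerase I initiation factor, was mixed: its median was -0.31, with 4 of 15 probe sets lower and 1 higher without overlap. The higher one, 8040188, differed by 0.73 ± 0.19. GRHL1, a transcription factor best known from epithelia, had a median difference of -1.11 over 15 passing probe sets, 10 of them lower without overlap. Its median was -0.58 over the 3 probe sets that pass a filter at the 50th percentile, and -0.74 without the second array labelled induced.

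KLF11, a zinc-finger repressor that responds to TGF-beta, had the lowest median of all members. Its median log2 signal was 7.90, 8.07, 7.68 and 7.97 in the arrays labelled uninduced and 5.20, 5.54, 5.30 and 5.43 in those labelled induced. The median difference was -2.57, or 5.96-fold lower, and all 9 probe sets were lower, 7 of them without overlap. The shift was uneven along the gene. The 3 probe sets with the lowest numbers, 8040212 to 8040214, differed by -0.12 ± 0.28, -0.69 ± 0.24 and -0.17 ± 0.17, and the last of them is the brightest. The remaining 6 differed by -2.17 to -6.04. Probe set 8040219 had log2 signals of 8.79, 9.02, 8.98 and 9.15 in the arrays labelled uninduced and 3.29, 2.92, 2.92 and 2.67 in those labelled induced, a difference of -6.04 ± 0.19. All 4 of the latter lie below 4.77, the mean signal needed to pass the filter. A filter at the 50th percentile of mean signal removes 4 of the 9 probe sets and gives a median of -0.69. That mean includes the arrays labelled induced, so it can remove exons for being low there. The gene-level difference was -2.60 ± 0.11.

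CYS1, a protein of primary cilia, closes the 2p25 stretch without the shift. Its median log2 signal was 7.61, 7.77, 7.53 and 7.86 in the arrays labelled uninduced and 7.19, 7.82, 8.13 and 7.92 in those labelled induced. The groups overlapped, and the median difference of its 3 probe sets was 0.07. The brightest, 8050234, differed by 0.01 ± 0.15, and 8050233 by 0.09 ± 0.16. Without the first array labelled induced the median was 0.25, and without the first labelled uninduced, or without the third labelled induced, it was -0.02.

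**Figure D2:**
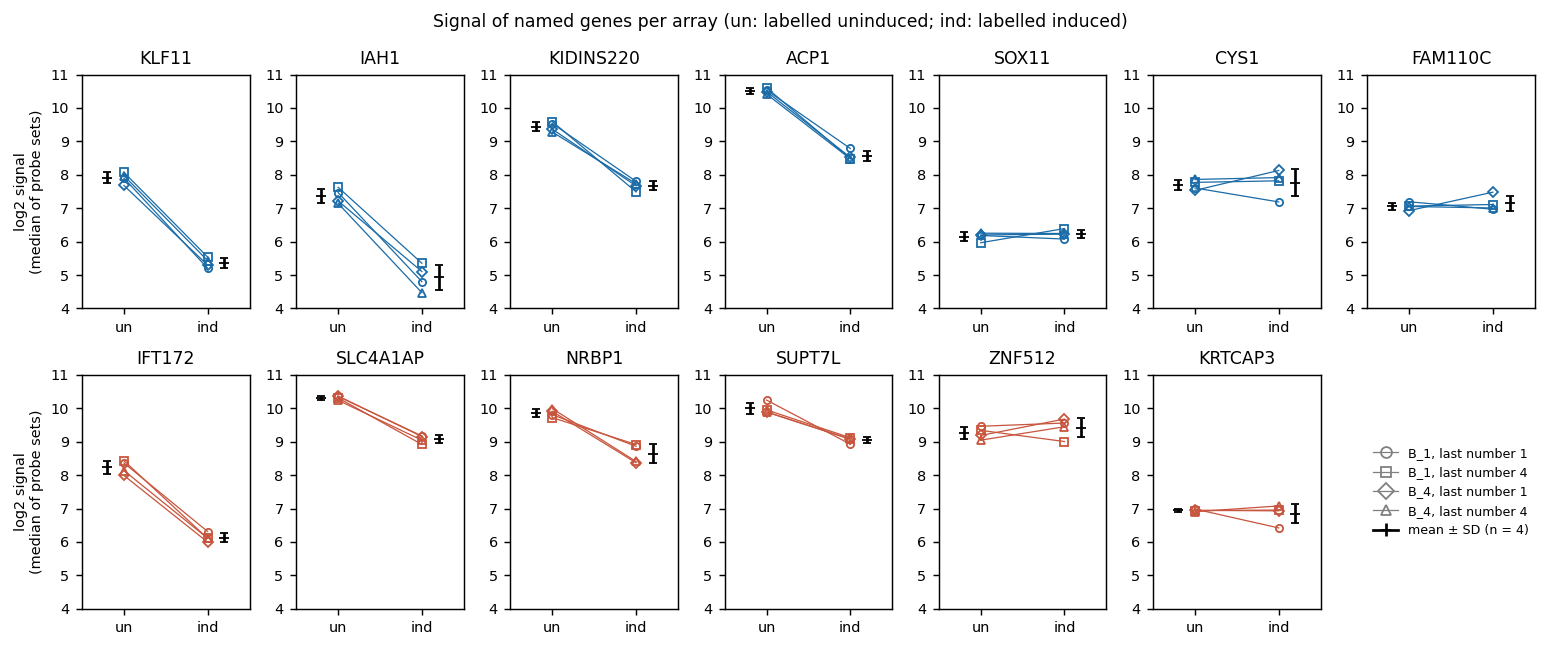
Median log2 signal over the passing probe sets of a gene (y) in each of the 8 arrays, for the genes with the largest or smallest differences and those of opposite sign; lines join arrays of a pair, and black marks give mean ± SD (n = 4). KLF11 goes from about 7.91 to 5.37 and IFT172 from 8.23 to 6.13 without overlap, while SOX11, CYS1, FAM110C, ZNF512 and KRTCAP3 overlap.

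The 2p23 stretch opens with MPV17, a protein of the inner mitochondrial membrane, GTF3C2, a subunit of the RNA polymerase III factor TFIIIC, EIF2B4, a subunit of the exchange factor for eIF2, and SNX17, a sorting protein of endosomes. MPV17 had a median difference of -0.43 and GTF3C2 one of -0.37. In each of them a dim probe set went the other way without overlap: 8051074 of MPV17 was higher by 1.14 ± 0.32, and 8051096 of GTF3C2 by 1.05 ± 0.43. EIF2B4 and SNX17 had medians of -0.89 each, with 11 of 15 and 15 of 17 probe sets lower without overlap. ZNF513, a zinc-finger protein, had a median of -0.22 over 5 probe sets, with all 5 overlapping. PPM1G, a protein phosphatase that acts on splicing factors, had -0.91, with 9 of 13 lower without overlap.

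NRBP1, a pseudokinase, had a median log2 signal of 9.81, 9.72, 9.91 and 9.99 in the arrays labelled uninduced and 8.86, 8.91, 8.37 and 8.41 in those labelled induced. The groups did not overlap, 17 of 19 probe sets were lower without overlap, and the median difference was -1.21, or 2.32-fold lower. The brightest probe set, 8040934, had that same difference, with an SE of 0.18. Probe set 8040935 had the lowest difference, -2.05 ± 0.75, and in it the B_4 array with last number 4 stood at 3.14 while the others labelled induced lay between 6.35 and 7.14. Probe set 8040930 was higher by 0.81 ± 0.35 with overlapping groups.

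KRTCAP3, which encodes a small membrane protein, had the smallest median of the 2p23 stretch. Its median log2 signal was 6.98, 6.94, 6.95 and 6.90 in the arrays labelled uninduced and 6.42, 6.95, 6.93 and 7.08 in those labelled induced. The groups overlapped, with the first array labelled induced lowest, and the median difference over 8 probe sets was -0.06. Its brightest probe set, 8040950, differed by 0.27 ± 0.17 and a dim one, 8040959, by -0.94 ± 0.30, the only one of the 8 that was lower without overlap.

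IFT172, a component of the transport particle that builds cilia, had the largest shift of the 2p23 stretch. The arrays labelled uninduced had a median log2 signal of 8.36, 8.43, 7.99 and 8.13, and those labelled induced 6.31, 6.10, 5.99 and 6.11. Of 45 passing probe sets, 44 were lower and 42 did not overlap, and the median difference was -2.24, or 4.72-fold lower. The pair values ran from -2.50 to -2.07. The brightest probe set, 8051172, had means of 11.2 and 9.25 and differed by -1.97 ± 0.16. The lowest difference was -3.73 ± 0.43 in 8051165, and the highest was 0.29 ± 0.22 in 8051154, the only one above 0. Both CYS1 and IFT172 encode proteins of cilia, and their differences were 0.07 and -2.24.

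ZNF512, a zinc-finger protein, went the other way. Its median log2 signal was 9.46, 9.34, 9.19 and 9.05 in the arrays labelled uninduced and 9.56, 9.00, 9.68 and 9.45 in those labelled induced. The groups overlapped, since the B_1 array with last number 4 was the lowest of all 8, and the pair values were 0.27, -0.29, 0.49 and 0.53. The median difference was 0.23, with 12 of 14 probe sets higher. One probe set, 8040996, was higher without overlap: it read 7.96, 7.56, 7.85 and 7.41 in the arrays labelled uninduced and 9.15, 8.66, 9.28 and 9.21 in those labelled induced, a difference of 1.38 ± 0.17. The brightest, 8040998, differed by 0.43 ± 0.19 and the lowest, 8040994, by -0.11 ± 0.14, both with overlapping groups.

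CCDC121 had a median difference of -0.33 over 4 probe sets, with 1 lower without overlap, and its pair medians ran from -0.49 to 0.00. GPN1, a GTPase that takes part in bringing RNA polymerase II into the nucleus, could be read only in the gene-level table, where its log2 signal was 9.62, 9.68, 9.86 and 9.72 in the arrays labelled uninduced and 9.07, 8.85, 9.03 and 9.00 in those labelled induced. The groups did not overlap, and the difference was -0.73 ± 0.08. The start of GPN1 lies 37 bases from that of CCDC121, which is transcribed outward from it. In the gene-level table CCDC121 differed by -0.23 ± 0.09, with overlapping groups.

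SUPT7L, a subunit of the SAGA-type histone acetylase complex, had a median log2 signal of 10.2, 9.95, 9.89 and 9.89 in the arrays labelled uninduced and 8.93, 9.12, 9.07 and 9.08 in those labelled induced. All 10 probe sets were lower, 8 without overlap, and the median difference was -0.95, or 1.93-fold lower. Its brightest probe set, 8051212, differed by -1.05 ± 0.14, the lowest, 8051214, by -1.89 ± 0.42, and the highest, 8051211, by -0.30 ± 0.15. SLC4A1AP, which encodes kanadaptin, had 10.4, 10.3, 10.4 and 10.2 against 9.17, 8.92, 9.15 and 9.04. All 10 of its passing probe sets were lower without overlap, within the narrow range of -1.43 to -0.76, and the median was -1.29, or 2.45-fold lower. Its brightest, 8041021, differed by -1.29 ± 0.15, the lowest, 8041022, by -1.43 ± 0.14, and the highest, 8041017, by -0.76 ± 0.16.

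The last members of the 2p23 stretch are RBKS, PPP1CB, TRMT61B and WDR43. RBKS, ribokinase, had a median of -0.23, with 5 of its 10 probe sets below the filter and 2 of the other 5 lower without overlap. PPP1CB, a catalytic subunit of protein phosphatase 1, had -0.65, with all 15 probe sets lower and 13 without overlap. TRMT61B, a methyltransferase of mitochondrial RNA, had -0.88, with 4 of 5 lower without overlap. WDR43, a component of the machinery that builds the small ribosomal subunit, had -0.57, with all 18 probe sets lower and 13 without overlap.

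Over both stretches, 33 of 36 gene medians were below 0, where 8110 of all 17564 genes with a passing probe set had such a median. Taking each gene's median signal per array, 26 genes had groups that did not overlap, all of them lower in the arrays labelled induced: 14 of 19 in the 2p25 stretch and 12 of 17 in the 2p23 stretch. The other 10 overlapped. The share of all genes without overlap was not counted. The members were chosen on this contrast, so these counts describe the choice and support nothing further. Of the variance of the member differences, 53.8% lay between genes. This share was not corrected for the number of genes, so it does not rank the spread between genes against that within them. The median of a gene's probe set differences can depart from the difference of its median signals, since the middle probe set need not be the same one in every array.

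Brightness in the arrays labelled uninduced went with separation in the lower direction. In the 2p25 stretch, lower values without overlap were found in 26.7% of 15 probe sets with a mean log2 signal under 6 in the arrays labelled uninduced, 52.3% of 65 between 6 and 8, 82.2% of 73 between 8 and 10, and 94.9% of 59 at 10 or more. In the 2p23 stretch the shares were 18.2%, 44.2%, 72.8% and 90.9%, over 11, 52, 92 and 77 probe sets. Over all probe sets they were 3.06%, 14.7%, 26.0% and 37.7%. The members were above the share of all probe sets in each of these 4 bins in both stretches, which describes their choice on this contrast and supports nothing further. The bins use the arrays labelled uninduced, which are part of the difference itself. Over all probe sets the median difference was 0.25, 0.04, -0.06 and -0.19 from the lowest bin to the highest, so part of the rise with brightness can come from the binning. The lowest bins hold under 20 members each.

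**Figure D3:**
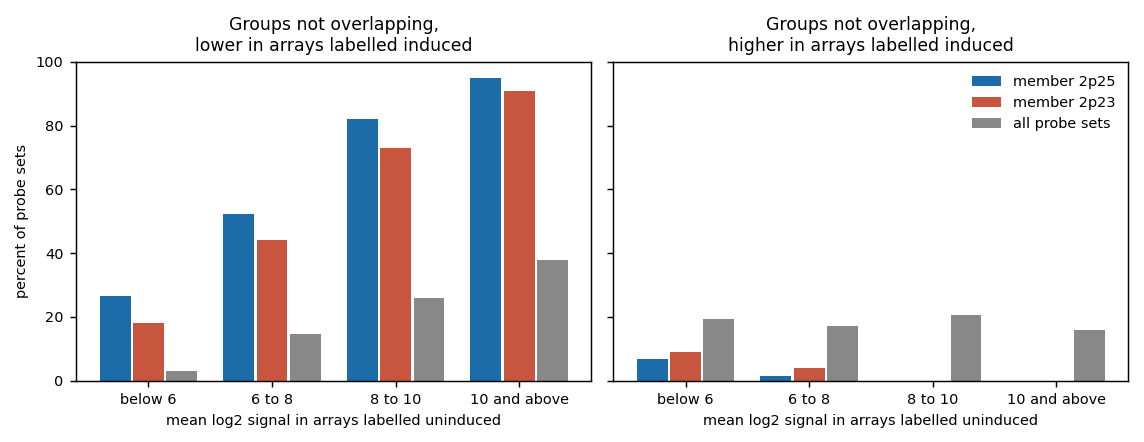
Bars give the percent of probe sets whose groups of 4 arrays do not overlap, lower (left) or higher (right) in the arrays labelled induced, in bins of mean log2 signal in the arrays labelled uninduced (x). On the left the 2p25 bars go from 26.7% to 94.9%, the 2p23 bars from 18.2% to 90.9% and the bars of all probe sets from 3.06% to 37.7%; on the right no member at 8 or above is higher without overlap.

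The genes around the members were not uniform. Inside the 2p25 stretch, 16 other genes had 96 passing probe sets with a median difference of -0.19, and 28.1% of these were lower without overlap. Of the 12 with 3 or more probe sets, ID2, an inhibitor of E-protein transcription factors, had a median of -5.44, MBOAT2, a lysophospholipid acyltransferase, -4.04, and EIPR1, a protein of endosomal recycling, -1.38 with all 9 probe sets lower. ASAP2 had -0.33, RPS7, a ribosomal protein, -0.23, ALKAL2 -0.15, SNTG2 -0.08 and CMPK2 -0.04. RNF144A had 0.01, ALLC 0.10, MYT1L 0.16 and PXDN 0.33. ID2 and MBOAT2 thus had lower medians than any member.

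Inside the 2p23 stretch, 8 other genes had 58 passing probe sets with a median of 0.00, and 8.62% were lower without overlap. BABAM2, a subunit of a BRCA1-containing complex, had -0.61, and MRPL33, a mitochondrial ribosomal protein, -0.57, over 3 probe sets each. FOSL2 had -0.10, SPDYA -0.08, PLB1 0.06, GCKR 0.09 and FNDC4 0.11. The non-members inside both stretches are on the whole dimmer genes: 104 of 200 of their probe sets in the 2p25 stretch and 61 of 119 in the 2p23 stretch did not pass the filter, against 20 of 232 and 15 of 247 of the members. The share of this difference in brightness in the difference between members and their neighbours was not tested.

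The shift was not limited to the members. Between the stretches, 92 genes had 1048 passing probe sets with a median difference of -0.55, and 44.9% of these were lower without overlap. Of the 83 genes there with 3 or more probe sets, 60 had medians below 0 and 35 were at -0.5 or lower. Next to CYS1 stood RRM2, a subunit of ribonucleotide reductase, at 0.12, HPCAL1, a calcium sensor, at -1.11, and ODC1, the first enzyme of polyamine synthesis, at -1.37 with all 11 probe sets lower without overlap. Before MPV17 stood DNAJC5G at -0.49, TRIM54 at 0.11 and UCN at -0.01. Past WDR43, TOGARAM2 had 0.32, ALK, a receptor tyrosine kinase, 0.27, and CLIP4, a microtubule-associated protein, 4.13 with all 16 probe sets higher. The 969 genes of chromosome 2 past WDR43 had a median of 0.00 and 20.5% of probe sets lower without overlap, and other chromosomes had 0.04 and 17.6%.

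**Figure D4:**
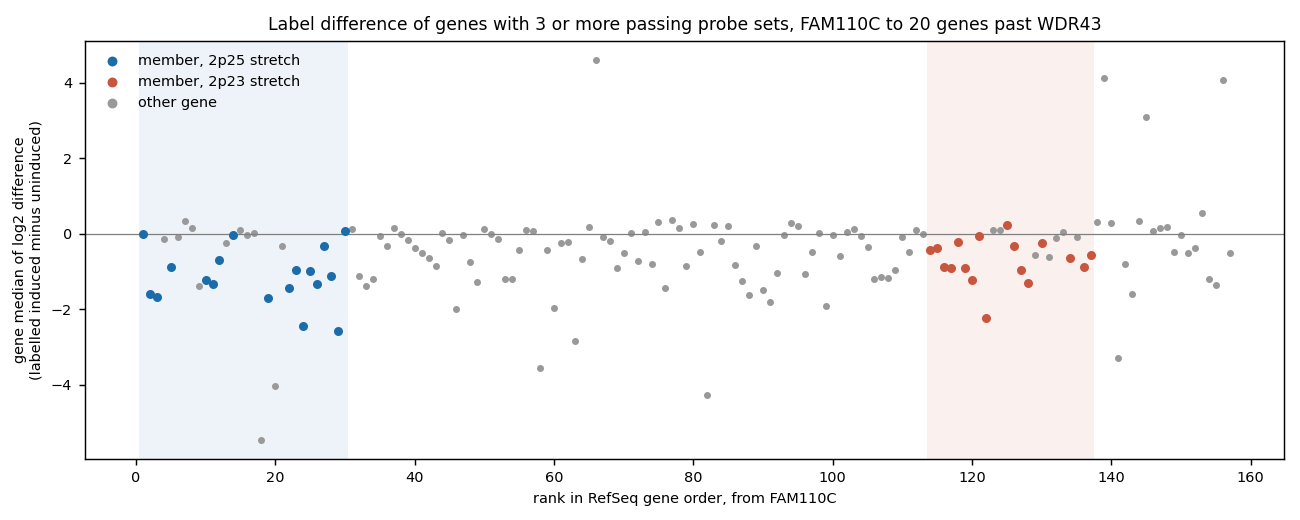
Each point is a gene with 3 or more passing probe sets, by rank in RefSeq order from FAM110C to 20 genes past WDR43 (x) and by the median log2 difference of its probe sets, labelled induced minus labelled uninduced (y). Blue and red mark members of the 2p25 and 2p23 stretches and grey other genes; members lie between -2.57 and 0.23, and 60 of the 83 grey genes between the shaded stretches also lie below 0.

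The promoter windows of the members were rich in G and C. Their median GC content was 65.7%, with 70.3% in the 2p25 stretch and 64.0% in the 2p23 stretch, against 58.7% over 35116 windows of the same length, and the median number of CG steps was 28.5 against 14. GGGCGG was found in 23 of 34 member windows (67.6%, against 45.0% of all windows), CCAAT in 10 (29.4%, against 34.6%) and CACGTG in 8 (23.5%, against 7.26%). The TATA box, the cyclic AMP response element and the NF-kB consensus were found in 0 of 34, where 11.5%, 1.85% and 5.91% of all windows held them. Each member gene was counted with a single window, while the comparison used every listed window. The sets were not matched for GC content or expression, so the shares are not like for like. A match, or none, says only which letters stand in these windows.

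The B code, the last number and their interactions with the label were not used to choose the members, so they were tested with limma over all 168240 probe sets. No member was called. For the B code, 0 of 444 members and 0% of all probe sets passed an adjusted p of 0.05, and the lowest adjusted p among members was 0.679. At an unadjusted p of 0.05, 18 members (4.05%) passed against 7.22% of all probe sets, and the median estimate, B_4 minus B_1, was -0.04. With a variance trend and robust fitting, 0 were called, and 29 members (6.53%) passed unadjusted against 7.85% of all probe sets. The lowest unadjusted p values were those of SH3YL1 probe set 8049986, at -1.23 ± 0.21, and IFT172 probe set 8051181, at -0.69 ± 0.16, both with an adjusted p of 0.679 from limma. The first read 6.63, 6.87, 4.98 and 5.23 in the arrays labelled uninduced and 4.35, 4.99, 3.67 and 4.04 in those labelled induced, so that both B_4 arrays were lower in each group.

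For the last number, limma called 0 members and 0% of all probe sets, with a lowest adjusted p of 0.870, and 18 members (4.05%) had an unadjusted p under 0.05 against 5.57% of all. With a variance trend and robust fitting 0 were called, and 39 members (8.78%) passed unadjusted against 5.89% of all. TRAPPC12 probe set 8040024 differed by -0.74 ± 0.16 and ITGB1BP1 probe set 8050186 by -0.58 ± 0.17, last number 4 minus 1, each with an adjusted p of 0.870.

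Whether the label difference itself depended on the B code was tested as an interaction. By limma, 0 members and 0% of all probe sets passed, the lowest adjusted p was 0.657, and 27 members (6.08%) passed unadjusted, against 7.33% of all. With a variance trend and robust fitting 35 members (7.88%) did, against 8.14% of all. The median interaction was 0.14, and 282 of 444 members had a label difference that was less negative, or more positive, in the B_4 arrays. That share was not counted over all probe sets, and probe sets of the same gene are not independent. Whether it is particular to the members is therefore not known. The median absolute interaction was 0.28 for the members and 0.34 over all probe sets. A pair of IFT172 exons had the lowest p, in opposite directions. Probe set 8051149 had label differences of -3.98, -4.37, -2.51 and -2.35 in the 4 pairs, an interaction of 1.74 ± 0.33, and 8051148 had -1.65, -3.10, -4.58 and -5.54, an interaction of -2.68 ± 0.57, each with an adjusted p of 0.657 from limma.

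For the interaction with the last number, limma called 0 members and 0% of all probe sets, with a lowest adjusted p of 1.0. Unadjusted, 12 members (2.70%) passed against 4.01% of all. With a variance trend and robust fitting these were 11 members (2.48%) and 3.45%. GRHL1 probe set 8040205 had pair differences of 0.31, -1.29, 0.60 and -1.94, an interaction of -2.07 ± 0.37, and KLF11 probe set 8040215 had -3.59, -2.50, -3.76 and -2.13, an interaction of 1.35 ± 0.33. At the level of genes, 0 of 37 members were called for any of these 4 contrasts, with 5, 4, 6 and 1 passing unadjusted (13.5%, 10.8%, 16.2% and 2.70%), against 13.9%, 7.04%, 11.9% and 2.95% of 13796 genes. For the interaction of the label with the B code, limma called 41 of those 13796 genes (0.297%). With 4 pairs these tests have few degrees of freedom, and a p above the threshold does not show that the codes made no difference.

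**Figure D5:**
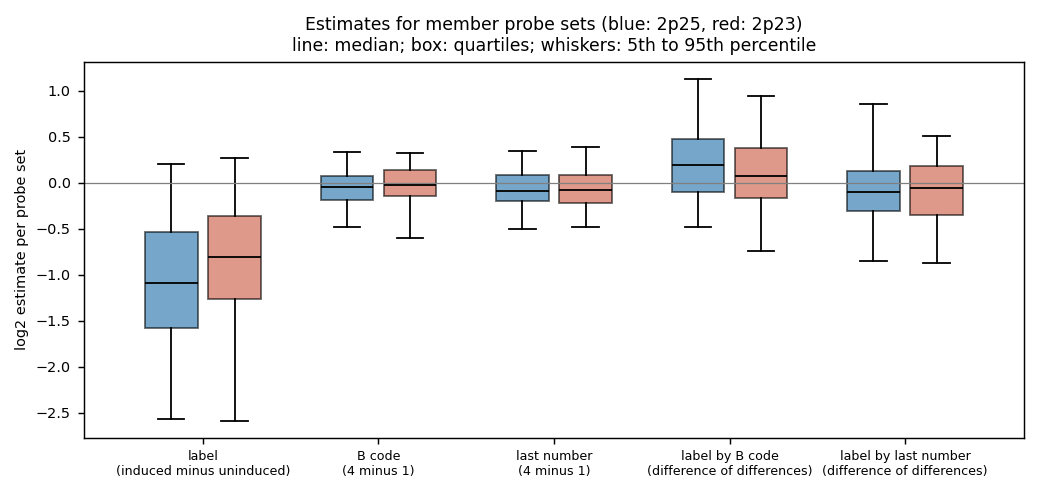
Estimates on the log2 scale (y) for the member probe sets of the 2p25 stretch (blue) and the 2p23 stretch (red) in 5 contrasts (x); boxes give quartiles, the line the median and whiskers the 5th to 95th percentile. The label contrast, which chose the members, has medians of -1.09 and -0.81, while the B code, last number and interaction contrasts have medians between -0.10 and 0.19.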

How the data were processed

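RNA of L1236 cells was read on Affymetrix arrays after a whole-transcript labelling, per the labels' protocols. The authors deposited log2 signals. The submitters' processing notes name RMA and Partek and give no version. Base 2 was inferred from the value range (1.88 to 15.1). RMA equalises the arrays' distributions, so a shift of all genes would be removed. The genome build is not given in the sources used here. Exon-level and gene-level samples summarise the same 8 arrays: 4428 of 4428 shared features were identical.

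Platform annotation named the probe sets; 10159 with several symbols and 22951 with none were left unnamed. Symbols were updated and ordered through RefSeq on GRCh38.p14. A probe set passed with a mean of at least 4.77, the 25th percentile of all exon-level means, which left 168240. Differences are of group means, and SE and adjusted p come from limma 3.58.1 in R 4.3.3, fitted to all passing probe sets with label, B code and last number, Benjamini-Hochberg at 0.05. The fit was tested on simulated data. Results and figures were made with Python 3.11.15, pandas 2.3.3 and matplotlib 3.10.9, with data.table for reading (version 1.17.8). The number of arrays limits the precision.

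The members and lists were chosen with earlier results of these data known. Values per array were given for the 4 genes per stretch with the largest absolute median, those of the other sign and the smallest, with their brightest, lowest and highest probe sets. Other genes named lie inside a stretch or are the 3 next to its ends, with at least 3 passing probe sets. For the other contrasts the 2 lowest p were named. Alternatives were the filter, normalization, a variance trend, the gene-level table, the pair as a block and each array left out.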

Additional observations from a re-analysis of the deposited data

Results flagged for a closer look

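Of 96 groups of 4 arrays checked for an array far from the others, 3 had one, where chance gives about 1 in 20. All were in ACP1. In its median signal the B_1 array with last number 1 labelled induced stood at 8.79, above the other 3, and its gap to the nearest was 0.854 of the range. In the arrays labelled uninduced, the B_1 array with last number 4 stood at 12.8 in probe set 8039971, above the rest (0.919 of the range), and at 6.05 in probe set 8039962, below the rest (0.865 of the range).

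COLEC11 had median label differences below 0 in both pairs with last number 1 and above 0 in both with last number 4, a difference of 0.459 that was not tested at the level of the gene. GRHL1 probe set 8040205 had the opposite arrangement, above 0 with last number 1 and below 0 with last number 4, an interaction of -2.071 with an adjusted p of 1.0 from limma.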

How the results depend on the processing

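The median of the 2p25 stretch stayed between -1.16 and -0.98 over all alternatives and that of the 2p23 stretch between -0.83 and -0.65. The 2p23 median moved by more than the spread between pairs in 2 of them, to -0.67 in the gene-level table and to -0.65 as the median of gene medians. Leaving out each array in turn gave -1.16 to -1.02 and -0.83 to -0.77, and 158 to 162 and 167 to 177 members without overlap. Dropping an array cannot add an overlap, so these counts could not fall below the 156 and 165 of the main setting. The share of all probe sets without overlap, 36.6% in the main setting, was not counted under the alternatives. With a filter at the 50th percentile, which kept 358 members where the main one kept 444, the counts without overlap were 127 and 147, against 156 and 165. In the 2p25 stretch these were 127 of 159 probe sets against 156 of 212, so the count fell and the share did not. Of 467 alternatives for single genes, 24 moved a median by more than the spread between pairs, and none turned the sign of a gene whose groups do not overlap. The medians of COLEC11, CYS1, FAM110C and KRTCAP3, whose groups overlap, changed sign in 6, 3, 5 and 3 of them, from -0.03 to at most 0.09, from 0.07 to at lowest -0.02, from -0.01 to at most 0.14 and from -0.06 to at most 0.10. No member was called for the B code, the last number or an interaction under any alternative. As a check of pairing, deviations of same-numbered arrays from their group means correlated at 0.03, -0.05, 0.00 and -0.01. Those of differently numbered arrays correlated at -0.14 to 0.10. Pairs thus shared no visible deviation, which does not settle whether the arrays were paired by origin. With a replicate block the medians were -1.09 and -0.81 and 0 interactions were called. The gene medians of KLF11, IAH1, SH3YL1 and GRHL1 depended on the filter. It uses the mean of all 8 arrays, so a stricter one can remove exons because they are dim in the arrays labelled induced. In the gene-level table these genes differed by -2.60, -2.13, -0.95 and -1.02.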
